A study of Mus musculus with 4 samples.

Results

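Integrins, laminins and the other genes through which epithelial cells hold on to their basement membrane were followed in RNA sequencing of mouse intestinal cells. The genes were taken by symbol: integrin alpha and beta subunits (Itga or Itgb followed by a digit or by v), laminin chains (Lama, Lamb, Lamc), type IV collagen chains (Col4a), and Nid1, Nid2, Hspg2, Agrn, Dag1, Cd151, Ptk2, Tln1, Vcl and Ilk. The leukocyte integrins Itgae, Itgal, Itgam, Itgax and Itgad and the integrin-binding proteins were outside the set. Of 38124 gene IDs in the deposited tables, 49 met this definition and 39 of them had a count in at least 1 library. The minimum for the statistical test, 20 counts or more in 2 or more libraries, was met by 25; the others were 14 with fewer counts and 10 with none.

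The cells came from C57BL/6 male mice, 71 weeks old, and were sorted on GFP brightness. The GFP-high fraction is labelled as intestinal stem cells and the GFP-low fraction as progenitors. Mice of one group had eaten high-fat diet (HFD). The other group, named WT in the labels, had eaten a diet labelled normal and is called control here. Each of the 4 combinations of diet and fraction has 1 library, made from cells pooled from 2 to 5 mice, so no group has a replicate of its own. What drives GFP, what the diets contain, and whether the same mice gave both fractions is not given in the sources used here. The study compared the fractions and the diets.

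The basement membrane is a thin sheet of laminin and type IV collagen networks, tied together by nidogens and by the proteoglycans perlecan (Hspg2) and agrin (Agrn). Laminins are trimers of an alpha, a beta and a gamma chain. Integrins are pairs of an alpha and a beta subunit that span the cell membrane: they bind the matrix outside and, through talin (Tln1), vinculin (Vcl), the integrin-linked kinase (Ilk) and the focal adhesion kinase (Ptk2), reach the cytoskeleton and signalling inside. In the gut the sheet lies under crypt and villus epithelium alike, and much of its collagen is made by the cells beneath the epithelium.

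The libraries held 4677389 to 6207080 counts, of which the 49 genes took between 0.225% and 0.254%. Where a gene had 0 counts, an upper limit of 3 counts allows it 0.449 to 0.680 CPM (counts for each 1000000 in the library, scaled for composition with TMM factors), depending on the library. That limit and all intervals below cover counting error only. The stem cell marker Lgr5 had 242 and 241 CPM in GFP-high against 12.5 and 12.7 CPM in GFP-low, for HFD and control. The direction is that of the stem cell label, but what drives GFP is not given, so the sort itself may have set it. Lgr5 does not check the progenitor label of GFP-low, and markers of differentiated cells are given below. All 8 epithelial markers were detected. Of 11 fibroblast markers 8 had 0 counts in every library (Col1a1, Col1a2, Col3a1, Col5a1, Col6a1, Dcn, Lum and Thy1), and the list, mostly Vim, summed to between 2.53 and 27.6 CPM. Of 8 endothelial markers 4 had 0 counts everywhere (Cdh5, Cldn5, Emcn and Eng), and the list held 3 to 7 counts per library. The leukocyte markers Ptprc and Csf1r were at 0 in every library, and the list of 14 held between 118 and 178 counts, mostly Itgam, which is higher in GFP-low.

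Promoter sequence is shown for 5 genes that carry the differences described below: Lamb3, Lamb2 and Hspg2, higher in GFP-high, Itga3, lower in GFP-high, and Itga5, which with Hspg2 was lower under HFD. Each is the 250 bases before the start site in RefSeq's models on GRCm38.p6, which covered 35 of the 49 genes. The regions are chr1:193301744-193301993, plus strand, for Lamb3 (the more upstream of 2 start sites, which lies 94295 bases inside the longest GENCODE model), chr9:108479612-108479861, plus strand, for Lamb2, chr4:137468553-137468802, plus strand, for Hspg2, chr11:95076715-95076964, minus strand, for Itga3 (of 2 start sites, the one at the gene's 5′ end), and chr15:103366792-103367041, minus strand, for Itga5. Capitals mark matches on either strand to any of 5 motifs. The GC box, known for Sp family binding, was searched as GGGCGG. The motif of AP-1 proteins, which act on many adhesion genes, was searched as TGANTCA. The motif of TCF proteins, the Wnt pathway's factors at DNA, was searched as CTTTGAT. The motif of the intestinal CDX proteins was searched as TTTATNG, and the TATA box of core promoters as TATAAA.
Lamb3: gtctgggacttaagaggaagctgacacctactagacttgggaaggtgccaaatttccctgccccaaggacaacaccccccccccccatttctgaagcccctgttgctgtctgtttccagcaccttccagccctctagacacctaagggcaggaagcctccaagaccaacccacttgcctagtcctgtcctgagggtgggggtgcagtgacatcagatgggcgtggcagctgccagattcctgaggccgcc
Lamb2: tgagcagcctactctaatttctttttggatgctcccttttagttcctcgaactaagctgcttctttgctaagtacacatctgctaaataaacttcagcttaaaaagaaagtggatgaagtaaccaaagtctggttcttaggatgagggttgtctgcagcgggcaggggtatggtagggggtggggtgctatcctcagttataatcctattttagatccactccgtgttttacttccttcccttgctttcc
Hspg2: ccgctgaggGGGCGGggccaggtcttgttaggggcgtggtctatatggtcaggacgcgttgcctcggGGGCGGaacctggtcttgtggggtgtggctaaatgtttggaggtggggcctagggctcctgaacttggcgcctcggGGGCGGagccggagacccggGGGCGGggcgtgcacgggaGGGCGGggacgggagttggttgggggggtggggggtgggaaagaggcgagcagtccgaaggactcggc
Itga3: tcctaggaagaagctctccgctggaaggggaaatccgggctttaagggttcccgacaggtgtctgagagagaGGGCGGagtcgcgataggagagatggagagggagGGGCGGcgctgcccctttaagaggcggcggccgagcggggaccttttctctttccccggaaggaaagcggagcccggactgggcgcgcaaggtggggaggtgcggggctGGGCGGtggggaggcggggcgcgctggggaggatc
Itga5: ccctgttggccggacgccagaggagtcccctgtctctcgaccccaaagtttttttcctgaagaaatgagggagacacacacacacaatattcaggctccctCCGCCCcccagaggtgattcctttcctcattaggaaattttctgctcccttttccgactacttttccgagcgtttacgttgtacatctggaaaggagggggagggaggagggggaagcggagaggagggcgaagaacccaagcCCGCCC
The capitals are all GC boxes, with 5 in Hspg2, 3 in Itga3 and 2 in Itga5. A GC box was found in 32.7% of the 32851 promoter windows of this length in the table. The AP-1, TCF, CDX and TATA motifs, present in 6.75%, 3.21%, 9.81% and 12.4% of all windows, had no match in these 5 windows. The windows of Hspg2 and Itga3 had a GC content of 70% and 67.6%, against a median of 52.4% over all windows, and the windows of Lamb3, Itga5 and Lamb2 were at 58.8%, 55.6% and 43.6%.

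To compare genes with one another, counts were divided by the exon length of each gene in GENCODE M21 and scaled to the same total in every library. On this per-length scale dystroglycan (Dag1), a laminin receptor outside the integrin family, was the most abundant of the genes, at 175 to 199. Next came Itgb1, the beta subunit shared by most matrix-binding integrins, at 132 to 148, and Itga6, a laminin-binding alpha subunit, at 81.3 to 152. Cd151, a tetraspanin that binds laminin-binding integrins (50.9 to 73.7), Itga3, the other epithelial laminin-binding alpha subunit (40.0 to 77.8), and Itgb4, the hemidesmosome subunit that pairs only with Itga6 (48.6 to 63.2), overlapped one another in their ranges. Tln1 (36.5 to 58.1) overlapped them from below, and Ilk (31.6 to 37.1), Vcl (28.5 to 34.7) and Agrn (27.9 to 38.0) overlapped one another at a lower level. Perlecan (Hspg2) ran from 11.0 to 37.1 and so reached the range of Agrn, Ilk and Vcl in 1 library, control GFP-high. Lamb3 (4.57 to 25.1) and Nid2 (5.41 to 14.4) lay below the ranges of those 3 genes. Exon length is that of all annotated exons joined, so genes with many unused exons come out too low.

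Laminin alpha chains were scarce beside their beta partners. Summed per length, the 5 alpha chains reached 2.27 to 4.40 and the 3 beta chains 7.60 to 32.8. The alpha level was mostly Lama5, the broad epithelial alpha chain, with 45 to 79 counts in each library. Lama3, the alpha chain that assembles with Lamb3 in epithelial anchoring laminin, had 1 and 3 counts under HFD (GFP-high, then GFP-low) and 8 and 5 under control, and Lama1, Lama2 and Lamc3 had none. Lamb1, a beta chain of many tissues, had 2, 3, 7 and 19 counts in the same order. Type IV collagen was almost absent: Col4a1 had 1, 0, 4 and 0 counts, Col4a4 had 1, 1, 0 and 0, and Col4a2, Col4a3, Col4a5 and Col4a6 had none, so each can be no higher than 0.449 to 0.680 CPM where it was at 0. Nid1 had 1, 2, 0 and 0 counts.

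Of the integrins, Itga8, Itga11 and Itgb2l had no count in any library. Itgb2, Itgb3, Itgb7 and Itgb8 had at most 2 counts in any library, and Itga2b, the platelet subunit, had 1 to 3. The leukocyte-type subunit Itga4 had 17 and 13 counts under HFD and 17 and 23 under control, Itga9 2 to 6, the collagen-binding Itga10 10 to 16 and the laminin-binding Itga7 5 to 21. None of these passed the minimum for the test.

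**Figure D1:**
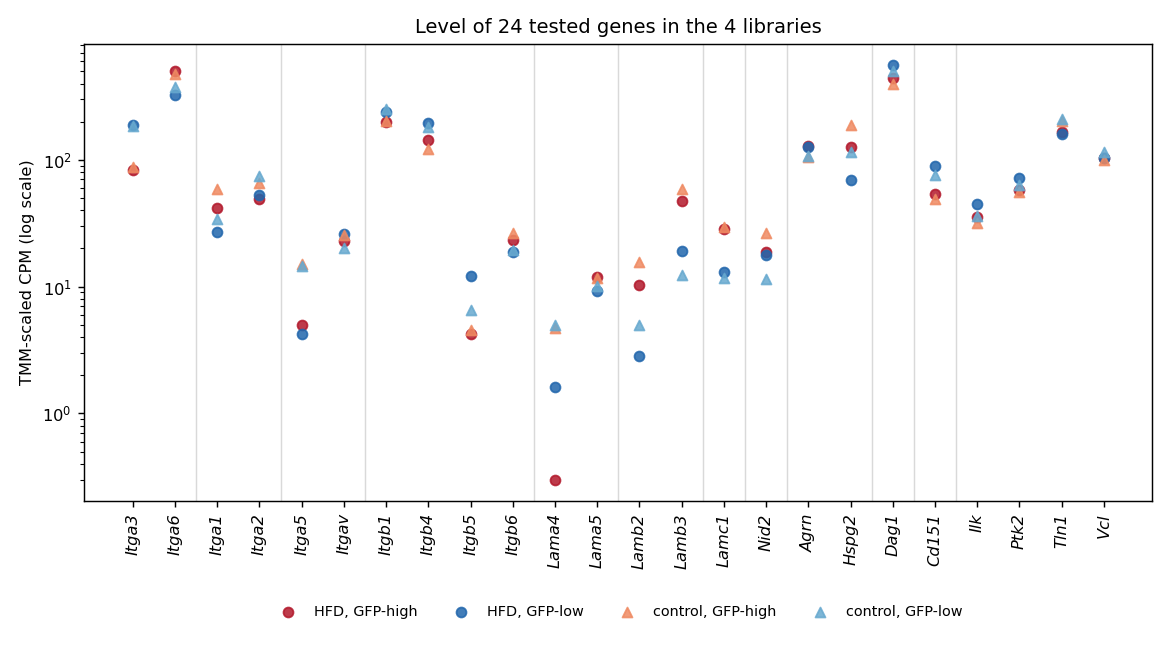
Level of 24 of the 25 tested genes in each library, in TMM-scaled CPM on a log axis, grouped by role between the grey lines; circles are HFD and triangles control, red shades GFP-high and blue shades GFP-low. The red and blue points of Itga3, Lamb3, Lamb2 and Lamc1 do not overlap. The same is so for most of the other genes, among them Ilk and Vcl, which were not called. For Itga5, Itga2, Tln1 and Lama4 the circles lie below the triangles, and for Lama4 the count minimum set this in advance.

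The fractions were compared first, by edgeR's quasi-likelihood test with diet as a block over all 10694 genes with enough counts. Laminin chains and perlecan were the genes most raised in GFP-high cells: Lamb2 3.35-fold, Lamb3 3.32-fold, Lamc1 2.31-fold and Hspg2 1.71-fold. The laminin-binding integrins split, with Itga6 1.4-fold higher and Itga3 2.18-fold lower in GFP-high. In all, 6 of the 25 tested genes rose in GFP-high and 7 fell, beside 22% and 25.6% of all tested genes (47.6% in either direction). The 13 genes called are 52% of the 25, close to that background, and the median log2 ratio was -0.00 over the 25 genes and over all tested genes alike. With library totals in place of TMM the ratios of all genes shifted up, to a median of 0.19, and 8 of the genes were called higher and 5 lower. Leaving out 1 library, and with it the diet block, left 3 to 7 calls, with Itga3, Lamb3 and Lamc1 called each time.

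The 2 abundant laminin-binding alpha subunits differed between the fractions in opposite directions. Itga6, which joins Itgb1 or Itgb4 to bind laminin, stood at 499 CPM in the HFD GFP-high library and 476 CPM in the control GFP-high library, against 326 and 374 CPM in the GFP-low libraries. Both GFP-high libraries lay above both GFP-low ones, and the gene rose in GFP-high (log2 ratio 0.48 ± 0.10 SE; adjusted p with edgeR = 0.00102). Itga3, which joins Itgb1, had 83.0 and 87.6 CPM in the GFP-high libraries against 189 and 183 CPM in the GFP-low libraries, for HFD and control. It fell in GFP-high (log2 ratio -1.13 ± 0.10 SE; adjusted p with edgeR = 1.83e-07), the smallest adjusted p of the 25 genes. Per length, Itga6 was 3.81 and 3.44 times Itga3 in the GFP-high libraries and 1.09 and 1.29 times Itga3 in the GFP-low libraries. Itga3 lies at chr11:95044474-95076801 (minus strand) and Itga6 at chr2:71745616-71858416 (plus strand), on GRCm38.

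The beta subunits that pair with them, the tetraspanin Cd151 and dystroglycan were lower in GFP-high. Itgb4, whose long tail holds the intermediate filament linkers of hemidesmosomes, had 145 and 121 CPM in the GFP-high libraries against 195 and 183 CPM in the GFP-low libraries, and fell 1.43-fold (edgeR adjusted p = 0.000443). Cd151 had 53.8 and 49.4 CPM in the GFP-high libraries against 89.6 and 76.1 CPM in the GFP-low libraries, and fell 1.6-fold (edgeR adjusted p = 0.000146). In both genes the libraries of one fraction did not overlap those of the other. That was so for most tested genes of the set, among them Ilk and Vcl, which were not called. How many of all genes separated in this way, by fraction or by diet, was not counted. Itgb1 (197 and 204 CPM in GFP-high, 240 and 250 CPM in GFP-low) fell 1.22-fold (edgeR adjusted p = 0.0199). Dag1 (445 and 395 CPM in GFP-high, 563 and 499 CPM in GFP-low) fell 1.26-fold (edgeR adjusted p = 0.00841). Both small differences were lost with DESeq2 (adjusted p = 0.283 and 0.143) and with library totals (edgeR adjusted p = 0.434 and 0.226). Per length, Itga6 was 2.68 and 3.06 times Itgb4 in GFP-high and 1.30 and 1.59 times Itgb4 in GFP-low.

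**Figure D2:**
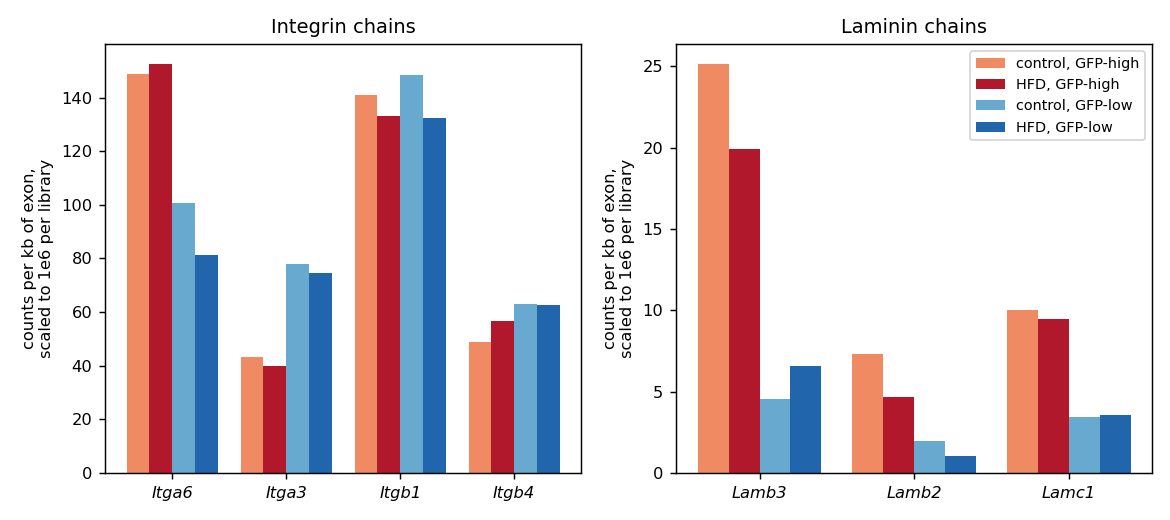
Per-length level (counts per kb of exon, scaled to the same total in every library) of 4 integrin and 3 laminin chains in the 4 libraries, each bar 1 library without a replicate. Itga6 is higher and Itga3 lower in both GFP-high libraries, and Lamb3, Lamb2 and Lamc1 are higher there.

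Among the collagen receptors, Itga1 was the one that differed. It had 41.3 and 59.4 CPM in the GFP-high libraries against 27.1 and 34.4 CPM in the GFP-low libraries, and rose 1.62-fold in GFP-high (log2 0.70 ± 0.14 SE; adjusted p with edgeR = 0.000507). Itga2, the other collagen-binding subunit of epithelia, had a log2 ratio of -0.15 ± 0.12 SE (not called, edgeR adjusted p = 0.322). Apart from Itgb1, described above, the subunits of fibronectin and RGD receptors gave a single call. Itgav (22.9 and 25.3 CPM in GFP-high, 25.9 and 20.2 CPM in GFP-low) and Itga5 had log2 ratios of 0.06 ± 0.17 and 0.12 ± 0.28 SE (adjusted p with edgeR = 0.801 and 0.75), and Itgb6, the epithelial partner of Itgav, 0.38 ± 0.17 SE (adjusted p = 0.0671, or 0.0092 with library totals). Itgb5, another partner of Itgav, fell in GFP-high from low counts, with 28 and 25 in GFP-high and 60 and 29 in GFP-low (log2 -1.09 ± 0.34 SE; adjusted p with edgeR = 0.0137, DESeq2 adjusted p = 0.191).

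Lamb3, the beta chain of epithelial anchoring laminin, was among the genes most raised in GFP-high. Lamb3 stood at 47.8 CPM in HFD GFP-high and 58.8 CPM in control GFP-high, against 19.2 and 12.5 CPM in GFP-low, and rose (log2 ratio 1.73 ± 0.20 SE; adjusted p with edgeR = 3.56e-05). Both GFP-high libraries lay above both GFP-low libraries. Lamb3 lies at chr1:193207699-193343878 (plus strand), on GRCm38.

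Lamb2 and Lamc1, which form laminins with Lama5 among others, moved the same way as Lamb3. Lamb2 had 69 and 87 counts in GFP-high and 14 and 22 in GFP-low (log2 1.74 ± 0.31 SE; adjusted p with edgeR = 0.000228). Lamc1, on the minus strand at chr1:153218922-153332786, had 28.5 and 29.3 CPM in the GFP-high libraries against 13.2 and 11.8 CPM in the GFP-low libraries (log2 1.21 ± 0.18 SE; adjusted p with edgeR = 3.9e-05). Neither gene's fractions overlapped, as was so for most tested genes of the set. Lama5, at 11.8 CPM in both GFP-high libraries and at 9.31 and 10.2 CPM in GFP-low, had a log2 ratio of 0.28 ± 0.25 SE (not called, edgeR adjusted p = 0.388).

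Hspg2, at chr4:137468769-137570630 (plus strand), had 126 and 188 CPM in the GFP-high libraries against 69.6 and 116 CPM in the GFP-low libraries, for HFD and control. Within each diet the GFP-high library was the higher one, but the HFD GFP-high library was close to the control GFP-low library. The gene rose in GFP-high (log2 ratio 0.77 ± 0.10 SE; adjusted p with edgeR = 1.39e-05), and without diet as a block it did not pass (edgeR adjusted p = 0.15). Agrn, the other proteoglycan, had 128 and 105 CPM in the GFP-high libraries against 127 and 107 CPM in the GFP-low libraries (log2 -0.00 ± 0.10 SE; adjusted p with edgeR = 0.977). Nid2 (18.9 and 26.4 CPM in GFP-high, 17.8 and 11.6 CPM in GFP-low) had a log2 ratio of 0.60 ± 0.25 SE (not called, edgeR adjusted p = 0.0683, or 0.0165 with library totals), and its exons overlap Rtraf on the other strand by 437 bases.

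Of the 4 cytoplasmic proteins none was called between the fractions. Their log2 ratios were -0.27 ± 0.14 (Ilk), -0.24 ± 0.12 (Ptk2), -0.11 ± 0.11 (Vcl) and -0.00 ± 0.10 SE (Tln1), with edgeR adjusted p from 0.107 to 0.985. Ilk overlaps Taf10 and Rrp8, Vcl overlaps Ap3m1, and Tln1 overlaps Creb3, all on the opposite strand, and whether the counting used strand is not given in the sources used here.

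Markers of differentiated cells moved with the fraction too. Of 9 enterocyte markers 8 were lower in GFP-high, and the list summed to 758 and 513 CPM in GFP-high against 6286 and 2697 CPM in GFP-low (HFD and control). All 7 goblet markers were lower in GFP-high, with 3156 and 3557 CPM against 17779 and 40514 CPM. Their part in the integrin and laminin differences was not tested. In sorted pools, fewer cells that express a gene and less RNA per cell cannot be told apart.

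Within single diets the differences were set side by side without a test, as log2 ratios of CPM with 0.5 CPM added. At least 2-fold differences with 5 CPM or more in the higher library were seen under HFD for 5 of the 23 genes at that level, 3 higher in GFP-high and 2 lower, beside 15.4% of all genes (6.34% higher, 9.05% lower). Under control they were seen for 5 of 25, 4 higher and 1 lower, beside 14.7% (5.43% higher, 9.3% lower). Lamb2, Lamb3, Lamc1 and Itga3 passed under both diets. Itgb5 passed under HFD alone (log2 -1.43, exact 95% Poisson interval -2.24 to -0.86, against -0.49, interval -1.37 to 0.29, under control). Nid2 passed under control alone (log2 1.16, interval 0.72 to 1.68, against 0.08, interval -0.32 to 0.49, under HFD). With 1 library each, the difference between diets was not tested.

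**Figure D3:**
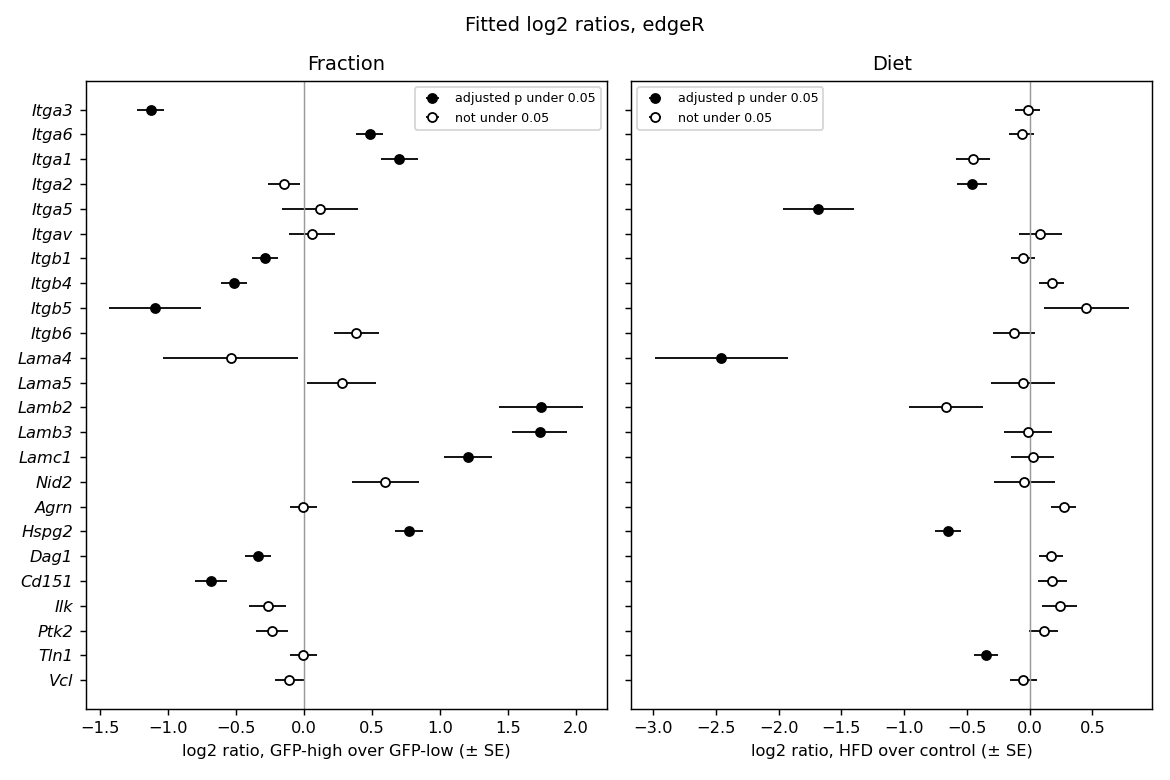
Fitted log2 ratios of 24 of the 25 genes between fractions (left, GFP-high over GFP-low) and between diets (right, HFD over control), with standard errors from edgeR; filled points have an adjusted p under 0.05. The filled points between fractions lie on both sides of 0, with Lamb2 at 1.74 and Itga3 at -1.13. The 5 filled points between diets all lie below 0. Lama4 is among them, and its side was set in advance, as only the control libraries brought it to the count minimum.

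The diets were compared in the same fit, with fraction as a block. Under HFD, the fibronectin receptor subunit Itga5 was 3.21-fold lower, perlecan (Hspg2) 1.57-fold lower, the collagen receptor subunit Itga2 1.37-fold lower and talin (Tln1) 1.27-fold lower. None of the 25 genes was called higher under HFD and 5 were called lower, beside 2.96% and 3.5% of all tested genes (6.46% in either direction). The fifth, Lama4, passed the minimum for the test only through the control libraries, so it had to differ, and the count is 4 without it. The median log2 ratio of the 25 genes was -0.05, against 0.01 for all tested genes. DESeq2 called 2 of the 5, Itga5 and Hspg2, and gave no adjusted p for Lama4. When any 1 library was left out, the fraction block went with it, and the fraction difference counted as spread. Those fits therefore cannot show whether the diet calls hold. Their log2 ratios ran from -1.80 to -1.58 for Itga5 and from -1.12 to -0.22 for Hspg2.

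Itga5, which with Itgb1 forms the main fibronectin receptor, had 33 and 21 counts in the HFD libraries (GFP-high and GFP-low) and 84 and 64 in the control libraries. These are 4.94 and 4.25 CPM against 15.2 and 14.5 CPM, so the diets did not overlap, and within a diet the fractions lay close together. It fell under HFD (log2 ratio -1.68 ± 0.28 SE; adjusted p with edgeR = 0.00127, DESeq2 adjusted p = 0.0282). The log2 ratio was -1.53 in GFP-high (interval -2.25 to -1.02) and -1.66 in GFP-low (interval -2.56 to -1.04). It was the only one of the genes at least 2-fold different in a fraction at 5 CPM or more, 1 of 23 in GFP-high and 1 of 24 in GFP-low, beside 2.32% of all genes in GFP-high (0.81% higher and 1.51% lower under HFD) and 4.22% in GFP-low (1.58% higher and 2.63% lower). Itga5 lies at chr15:103344286-103366763 (minus strand). Fibronectin itself (Fn1) had 2, 0, 4 and 2 counts, in the order given for the laminins.

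Hspg2 was lower under HFD in both fractions, going from 188 to 126 CPM in GFP-high (log2 -0.58, interval -0.71 to -0.45) and from 116 to 69.6 CPM in GFP-low (-0.73, interval -0.94 to -0.54). The fitted log2 ratio was -0.65 ± 0.10 SE (adjusted p with edgeR = 0.000672, DESeq2 adjusted p = 0.0493). The fall with diet and the difference between fractions were of like size, so the 4 libraries ran from control GFP-high down to HFD GFP-low.

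The other falls were smaller or rested on few counts. Itga2 stood at 49.0 and 53.0 CPM under HFD and at 65.9 and 74.5 CPM under control (log2 -0.46 ± 0.12 SE; adjusted p with edgeR = 0.0266, DESeq2 adjusted p = 0.794). Tln1, which activates integrins by binding beta tails, stood at 165 and 159 CPM under HFD and at 202 and 211 CPM under control (log2 -0.35 ± 0.10 SE; adjusted p with edgeR = 0.0399, DESeq2 adjusted p = 0.852). In both genes the 2 HFD libraries lay below the 2 control libraries. Lama4, a laminin alpha chain of vessels and muscle, had 2 and 8 counts under HFD and 26 and 22 under control. Only the control libraries brought it to the minimum for the test, so its fall was fixed in advance and its p-value is no evidence. The fitted log2 ratio was -2.45 ± 0.53 SE (adjusted p with edgeR = 0.0115). The intervals were -7.09 to -1.98 in GFP-high and -3.00 to -0.40 in GFP-low. Lamb1, under the minimum for the test, was at 2 and 3 counts under HFD and 7 and 19 under control. With no filter on low counts, Lamb1 had a log2 ratio of -2.49 ± 0.79 SE (adjusted p with edgeR = 0.0325). It was the only gene under the minimum to pass for diet in that fit. The others had edgeR adjusted p of 0.433 (Itga7) or more. The 8 endothelial markers together held 7 and 6 counts under HFD and 3 and 3 under control. The smooth muscle list, mostly Mylk, held 293 and 1008 counts under HFD and 221 and 783 under control. Acta2, of the same list, had 11 and 0 counts under HFD and 6 and 4 under control. Cnn1 was at 0, and Myh11, Des and Tagln at most at 1 count, in every library.

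The most abundant receptors did not pass the diet test. The log2 ratios were -0.06 ± 0.10 for Itga6, -0.02 ± 0.10 for Itga3, -0.05 ± 0.09 for Itgb1, 0.18 ± 0.10 for Itgb4, 0.18 ± 0.11 for Cd151 and 0.17 ± 0.10 SE for Dag1, with edgeR adjusted p between 0.336 and 0.955. Agrn was at 0.27 ± 0.10 SE (adjusted p with edgeR = 0.127) and Itga1 at -0.45 ± 0.13 SE (adjusted p with edgeR = 0.0589, or 0.0269 with no filter on low counts). Among the laminin chains, Lamb2 had a log2 ratio of -0.67 ± 0.29 SE (adjusted p with edgeR = 0.213), Lama5 -0.05 ± 0.25, Lamc1 0.03 ± 0.17 and Lamb3 -0.01 ± 0.19 SE. The remaining genes, Itgav, Itgb5, Itgb6, Nid2, Ptk2, Vcl and Ilk, had log2 ratios between -0.12 and 0.45, none called.

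In Lamb3 and Nid2 a fitted diet ratio near 0 averaged opposite ratios in the fractions. Lamb3 went from 58.8 CPM under control to 47.8 CPM under HFD in GFP-high (log2 -0.30, interval -0.53 to -0.07), and from 12.5 to 19.2 CPM in GFP-low (0.61, interval 0.13 to 1.13). Nid2 went from 26.4 to 18.9 CPM in GFP-high (-0.48, interval -0.84 to -0.13) and from 11.6 to 17.8 CPM in GFP-low (0.60, interval 0.11 to 1.15). In both genes the gap between fractions was narrower under HFD. With 1 library per combination this difference was not tested, and how many of all genes show such opposite ratios was not counted.

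**Figure D4:**
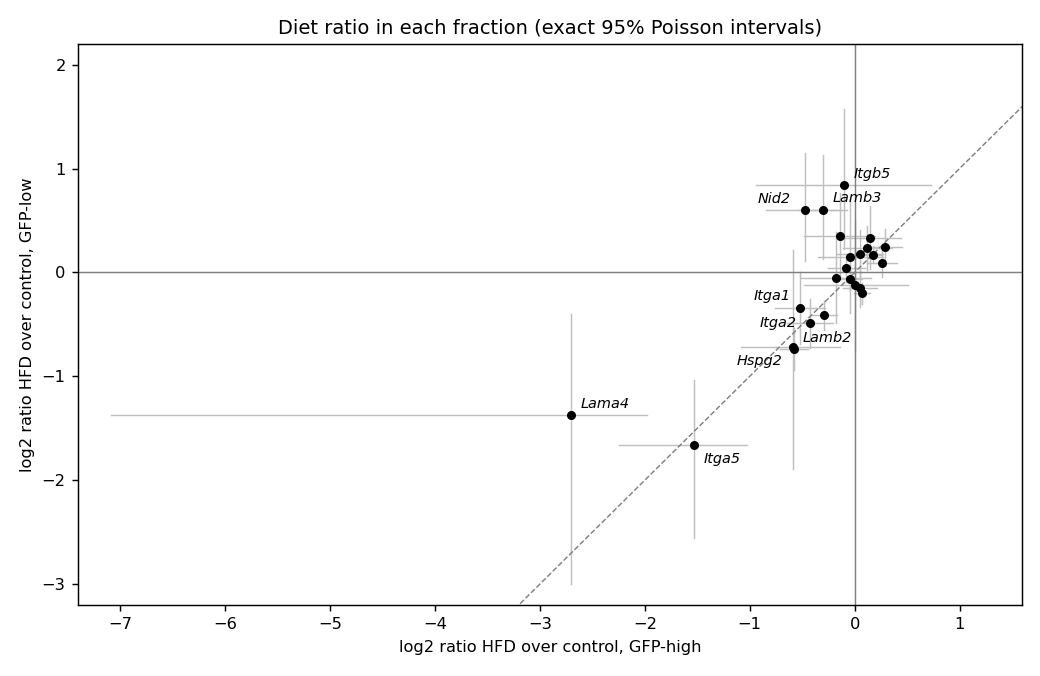
Log2 ratio of HFD over control in GFP-high (horizontal) and GFP-low (vertical) for 24 of the 25 genes, with 0.5 CPM added, and exact 95% Poisson intervals of the ratio (without the added 0.5 CPM) as grey lines; the dashed line marks equal ratios. Itga5 and Hspg2 lie near the dashed line below 0, and Nid2 and Lamb3 lie left of 0 and above it.

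Marker lists of other lineages were read in the same libraries. The goblet list, mostly Fcgbp, was at 40514 CPM in control GFP-low and 17779 CPM in HFD GFP-low, and at 3557 and 3156 CPM in GFP-high, for control and HFD. None of its 7 genes was called for diet. The Paneth list was at 2240 and 1103 CPM in GFP-low and at 756 and 445 CPM in GFP-high, and 5 of 6 genes fell under HFD. Of 9 enterocyte markers 5 rose under HFD. Their part in the diet differences above was not tested.

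The wider adhesion machinery was read from lists of genes outside the set. Their counts stand beside the shares over all tested genes given above, 22% higher and 25.6% lower in GFP-high and 2.96% higher and 3.5% lower under HFD. Of 22 tested focal adhesion adaptors, 5 rose in GFP-high and 6 fell (median log2 ratio 0.09), and 1 fell under HFD while none rose, all near those shares. Fermt1, the epithelial kindlin that activates integrins together with talin, had 207 and 287 CPM in the GFP-high libraries against 137 and 193 CPM in the GFP-low libraries, for HFD and control. It rose 1.5-fold in GFP-high (edgeR adjusted p = 0.000101) and fell 1.4-fold under HFD (edgeR adjusted p = 0.0048), the same directions as Hspg2. Tns3, a tensin that binds integrin tails, rose 2.69-fold in GFP-high (edgeR adjusted p = 1.7e-08), Flna, a filamin, 2.33-fold and Tns4, another tensin, 1.88-fold.

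Hemidesmosome and tetraspanin genes were mostly lower in GFP-high, as Itgb4 and Cd151 were: 7 of 9 fell and 1 rose (median log2 ratio -0.60), and 2 fell under HFD. Plec, the plectin that ties Itgb4 to keratin filaments, had 150 and 186 CPM in the GFP-high libraries against 259 and 353 CPM in the GFP-low libraries. It fell 1.81-fold in GFP-high (edgeR adjusted p = 2.61e-06) and 1.30-fold under HFD (edgeR adjusted p = 0.0266). Dst, which encodes the related linker of hemidesmosomes among other isoforms, fell 2.24-fold in GFP-high and the tetraspanin Cd82 2.36-fold, while the tetraspanin Cd81 rose 1.66-fold. Tspan1, a tetraspanin, fell 2.26-fold in GFP-high and 1.76-fold under HFD (edgeR adjusted p = 0.00161 for diet). Col17a1, the transmembrane collagen of skin hemidesmosomes, had at most 1 count in a library.

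In the dystroglycan list 4 of 14 genes rose in GFP-high and none fell (median log2 ratio 0.30), beside 22% of all tested genes higher and 25.6% lower, and none was called for diet. Utrn, the utrophin that links dystroglycan to actin, rose 1.96-fold (edgeR adjusted p = 3.2e-06). Pomt1 and B3galnt2, enzymes that build the laminin-binding glycan of dystroglycan, rose 1.4-fold and 1.54-fold. With edgeR, no gene of this list had an adjusted p under 0.05 for diet, and the smallest was that of Utrn (0.0909, log2 -0.32 ± 0.11 SE).

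Of 9 other matrix receptors 3 rose in GFP-high and none fell. Cd44, the hyaluronan receptor, had 201 and 179 CPM in the GFP-high libraries against 35.4 and 51.9 CPM in the GFP-low libraries, and rose 4.41-fold (edgeR adjusted p = 6.68e-06). Sdc4, a syndecan of focal adhesions, rose 2.07-fold, and Ddr1, a collagen-binding kinase, 1.42-fold. Of 7 other tested matrix ligands, Ccn1 (28 and 21 counts in GFP-high, 3 and 5 in GFP-low) and Thbs1 (31 and 24 in GFP-high, 11 and 7 in GFP-low) reached the count minimum only through the GFP-high libraries, so they had to be higher there. Of the other 5, 4 rose in GFP-high and none fell, beside 22% and 25.6% of all tested genes: Smoc2 (also one of the stem cell markers) 3.30-fold, Fras1 2.17-fold, Mfge8 1.94-fold and Fbln1 1.72-fold. For diet, the smallest edgeR adjusted p was 0.0823 (Cd47) among the receptors and 0.275 (Fbln1) among the ligands.

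Enzymes that fold and cross-link collagen were called in both comparisons, beside type IV collagen counts near 0. Of 7 tested, 1 rose in GFP-high and 3 fell, and 2 fell under HFD. Pxdn, the peroxidase that cross-links type IV collagen, had 600 and 148 counts in the control libraries (GFP-high and GFP-low) and 41 and 2 in the HFD libraries. The control libraries were far above the HFD libraries in each fraction, and the fall with diet was 21.4-fold (log2 -4.42 ± 0.25 SE; adjusted p with edgeR = 7.97e-07). It was also 3.58-fold higher in GFP-high (adjusted p with edgeR = 3.26e-05). P4hb, a protein disulfide isomerase of the secretory pathway, fell 2.74-fold in GFP-high, Mia3, which loads collagen for export, 2.24-fold and Ppib, a collagen-folding isomerase, 1.36-fold. Mia3 also fell 1.39-fold under HFD (edgeR adjusted p = 0.0248). Of 9 proteases and inhibitors 3 rose in GFP-high and 2 fell, and under HFD Timp3, an inhibitor bound to matrix, rose 2.46-fold, with 94 and 51 counts against 40 and 12 in control (edgeR adjusted p = 0.0191). Mmp15, a membrane-bound metalloprotease, stood at 68.0 and 39.7 CPM under HFD and at 109.5 and 79.3 CPM under control, and fell 1.77-fold (edgeR adjusted p = 0.000353).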

How the data were processed

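Poly(A)-selected RNA of 4 sorted, pooled cell samples was sequenced from strand-specific libraries, per the labels' protocols. The authors deposited whole read counts for each gene, with no normalization. Tools named in the submitters' processing notes are HTSeq, cutadapt and TopHat version 1.4.1, and the builds are mm10 and GRCm38. Which annotation release and strand setting they used is not given in the sources used here. Of 38124 IDs, 36345 matched a symbol. Positions, exon lengths and overlaps came from GENCODE M21.

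Genes with 20 counts or more in at least 2 libraries (10694) were fitted with edgeR version 4.0.16 in R version 4.3.3: TMM scaling over all genes, an additive model of diet and fraction, robust quasi-likelihood F-test, two-sided, Benjamini-Hochberg adjustment over all genes, threshold 0.05. Its 1 residual degree of freedom is the interaction of diet and fraction, so a real interaction counts as spread. P-values therefore rest on the spread of these 4 libraries alone, possibly technical, and if mice were shared between fractions the diet p-values are too small. SEs were computed from the log2 ratio and the F statistic. The fit was tested on simulated data.

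Within 1 fraction or diet no test was made: log2 ratios used 0.5 CPM added to each value, which understates differences of low genes, and exact 95% intervals of the ratio of Poisson counts. The genes, the lists beside them and the tests were chosen with earlier results of these data known. Some genes are counted but not reported here by name. Every other gene of the set with a count was named, and per-library values were given for those called or at least 2-fold different at 5 CPM, and for the most abundant of each role. From other lists, up to 4 called genes with the largest ratios in either comparison were named, with Fermt1, Plec, Col17a1 and Pxdn named regardless. Fn1, Cd81, Mfge8 and Fbln1, outside that rule, were named after their values were seen. Alternatives were other scalings, filters, DESeq2 version 1.42.0, fits without the block, and leaving out each library.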

Additional observations from a re-analysis of the deposited data

Results flagged for a closer look

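Lamb3 and Nid2 were singled out because their diet ratios had opposite signs in the 2 fractions, with exact 95% Poisson intervals on opposite sides of 0. These intervals cover counting error only. How many of all tested genes meet the same rule was not counted, so whether these genes stand out is not known. The log2 ratio in GFP-high minus that in GFP-low was -0.90 for Lamb3 and -1.08 for Nid2. With 1 library per combination the difference was not tested. Nid2 shares 437 exon bases with Rtraf on the opposite strand.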

How the results depend on the processing

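Between the fractions, 13 of the genes were called. That count was 8 without diet as a block, and 3 to 7 when 1 library was left out and the block dropped with it (4 without HFD GFP-high, 4 without HFD GFP-low, 3 without control GFP-high and 7 without control GFP-low). Itga3, Lamb3 and Lamc1 were called in all 4 of those fits. DESeq2 called 10, all among the 13. Between the diets 5 were called, and 3 with DESeq2 size factors in edgeR, 2 with the DESeq2 Wald test (which gave no adjusted p for Lama4), and 0 without the block. In that last fit, and when any 1 library was left out with the block dropped, the fraction difference counted as spread. Such fits cannot show whether the diet calls hold. Over all genes, the 5090 calls between fractions became 2390 with DESeq2 and 2948 without the block, and the 691 between diets became 189, 0 (149 at an unadjusted p under 0.05), and 1158 with no filter. The numbers at least 2-fold different within 1 fraction or diet were 1 (diet, GFP-high), 1 (diet, GFP-low) and 5 (fraction, HFD). They became 4, 4 and 8 with no minimum CPM, and 0, 0 and 3 with a minimum of 20 CPM. The cause of these changes was not tested, beyond the fewer libraries or other genes each fit used. No called ratio changed sign in any alternative run. Robust weights and TMM factors over all genes were adopted for the reported fit after the results of a first fit without either had been seen. As alternatives added after seeing the data, 14 and 5 genes (fractions and diets) were called without robust weights, and 13 and 4 with TMM factors from the tested genes only. Depth limits the 14 genes under the minimum and Itga5, Itgb5, Lama4, Lama5 and Lamb2, which have fewer than 100 counts in every library.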
